A study of Mus musculus with 6 samples.

Results

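The serotonin receptor genes described here are Htr1a, Htr1b, Htr1f, Htr2a, Htr2c, Htr3a, Htr4, Htr5a, Htr6 and Htr7, chosen by gene symbol, and they make up 10 of the 23282 entries in the count tables. RNA came from one forebrain hemisphere of adult male C57BL/6J mice, without the olfactory bulb and cerebellum. The 3 mice labelled water avoidance stress (WAS) stood for 1 h on a platform surrounded by water, and the 3 mice labelled control stood for 1 h on the same platform without water. Each mouse gave 1 library, and libraries were made by QuantSeq 3′ mRNA-Seq, which reads each polyadenylated transcript near its 3′ end. The hemisphere was sequenced as a whole, so that fewer cells of a type and less RNA per cell cannot be told apart in any value given here.

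Serotonin is made by a small number of neurons in the raphe nuclei of the brainstem, whose axons reach most of the forebrain. Its receptors fall into families: the 5-HT1 and 5-HT5 receptors act through inhibitory G proteins, the 5-HT2 receptors through phospholipase C, and the 5-HT4, 5-HT6 and 5-HT7 receptors through stimulation of adenylyl cyclase, whereas the 5-HT3 receptor is an ion channel opened by serotonin. The genes are used in different regions and cells of the forebrain. Htr2c is known from the choroid plexus, striatum and hypothalamus, Htr1a from the hippocampus and cortex, Htr7 from the thalamus and hippocampus, Htr3a from a class of interneurons and Htr6 from the striatum.

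The libraries held between 9248520 and 10502029 counts. Marker genes of regions differed strongly between the libraries. Markers of striatal projection neurons summed to 183 counts per 1000000 counts of the library (CPM) in WAS replicate 1 and 414 CPM in WAS replicate 3, against 2130 CPM in WAS replicate 2 and between 1064 and 1457 CPM in the control libraries. Markers of thalamus and habenula summed to 592 and 457 CPM in WAS replicates 1 and 3, against 147 CPM in WAS replicate 2 and between 110 and 155 CPM in the control libraries. Choroid plexus markers were low in WAS replicate 1 (333 CPM) and control replicate 2 (311 CPM) and lay between 1402 and 1820 CPM in the other 4 libraries. Cerebellar and olfactory bulb markers summed to between 46.9 and 85.9 CPM in the libraries labelled WAS and between 31.1 and 56.8 CPM in those labelled control. Much of this sum came from 1 gene, Calb2, at 59.7, 18.7 and 49.9 CPM in WAS replicates 1, 2 and 3. In control replicates 1, 2 and 3 it was at 14.2, 7.61 and 24.3 CPM. Of the cerebellar genes in the list, Gabra6 was at 0 or 1 count, Cbln3 at 6 to 10 counts and Pcp2 at 191 to 252 counts. The count column has a heading starting with WC in the tables labelled WAS and with WS in those labelled control, headings that the study does not define. Groups follow the sample labels here. Were WAS and control exchanged, all directions given below would be the opposite.

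Htr2c and Htr3a were higher in the libraries labelled WAS, with no overlap between the groups. Htr1a was higher by a smaller amount, with groups that overlapped, and the other members did not pass the test. Of the 10 genes, 9 passed the filter on low counts (a mean of at least 2 over the 6 libraries of log2(quantile-normalized count + 1)), and Htr1b did not. By edgeR's quasi-likelihood test, 3 of the 9 had an unadjusted p under 0.05, all higher in the libraries labelled WAS, where 7.24% of all 15239 genes tested had one and 3.85% had one and were higher. With the further criterion of a fold change of at least 1.5, 1 of the 9 was called, Htr3a, against 2.49% of all genes tested. None passed an adjusted p of 0.05, and 0% of all genes tested did so by this test. DESeq2 and limma also gave 0 members at an adjusted p of 0.05, where DESeq2 called 0.144% and limma 0% of all genes tested. At an unadjusted p under 0.05 each gave 2 members, Htr2c and Htr3a, against 5.82% of all genes tested by DESeq2 and 6.98% by limma. The libraries did not overlap between groups for 2 of the 9, which held for 12.2% of all genes tested, and both were higher in WAS, which held for 8.42%. The log2 fold change was above 0 for 6 of the 9 members and for 50.2% of all genes tested. The median log2 fold change was 0.47 over the 9 members and 0.00088 over all genes tested. The median of the 9 members was 0.29 without WAS replicate 3 and 0.20 without WAS replicates 1 and 3.

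**Figure D1:**
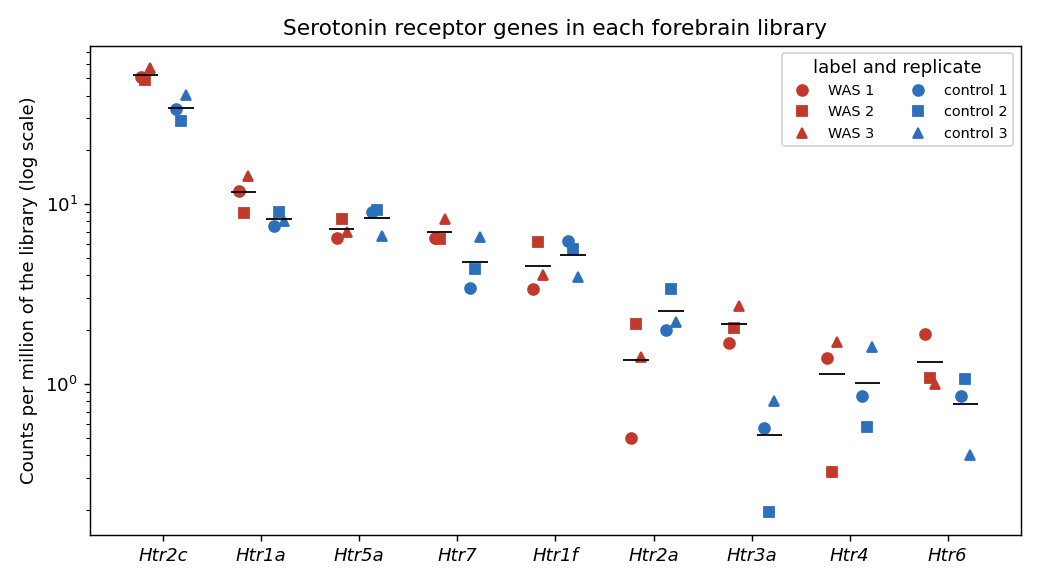
Counts scaled to the library total, in CPM (log scale), for the 9 serotonin receptor genes that passed the filter, in 3 libraries labelled WAS and 3 labelled control; each point is 1 library and each black line a group mean. Htr2c lies above the other genes in each library, and the groups are apart for Htr2c and Htr3a. Htr1b, with at most 3 counts, is not drawn.

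The order of the levels was led by Htr2c. Its mean over the 6 libraries was 43.1 CPM, 4.34 times that of Htr1a, and it took between 46.1% and 60.3% of the counts of the 10 genes in a library. Because 3′ reads come from the end of a transcript, these counts were not divided by transcript length, although the counted stretch can still differ between genes. Htr1a (9.92 CPM), Htr5a (7.77 CPM), Htr7 (5.89 CPM) and Htr1f (4.87 CPM) followed, and in each pair of neighbours in this order the ranges over the libraries overlapped. Htr2a (1.94 CPM), Htr3a (1.34 CPM), Htr4 (1.08 CPM) and Htr6 (1.05 CPM) formed a lower set, again with overlapping ranges between neighbours, and Htr1f lay above Htr2a in 6 of 6 libraries without overlap. Htr1b was at 0.0829 CPM.

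Htr2c encodes the 5-HT2C receptor, which couples to phospholipase C and whose transcript is edited at the RNA level. The gene lies at chrX:146962513-147197277 on the plus strand (GENCODE M21 on GRCm38, the assembly called mm10 in the submitters' processing notes). WAS replicates 1 to 3 held 511, 449 and 567 counts of it, and control replicates 1 to 3 held 352, 298 and 401. Scaled to the library total, these were 50.8, 48.5 and 56.8 CPM against 33.5, 28.7 and 40.2 CPM. The lowest library labelled WAS lay above the highest labelled control. WAS averaged 52.0 ± 4.27 CPM (SD, n = 3) and control 34.1 ± 5.77 CPM (SD, n = 3). On the log2 scale the difference was 0.57 with a standard error of 0.13 and a 95% interval from 0.28 to 0.86, a fold of 1.49. Its edgeR p was 0.00118 unadjusted and 0.477 after Benjamini-Hochberg adjustment. It ranked at place 34 of all genes tested by p. Dropping any single library kept the log2 fold change between 0.46 and 0.71. The 1.5-fold line was crossed when WAS replicate 1 (0.59), WAS replicate 2 (0.62) or control replicate 3 (0.71) was dropped, and with scaling to library totals alone (0.61). Over the alternatives its adjusted p was lowest without WAS replicate 2 (0.0269) and highest without control replicate 2 (0.9998). The exact permutation test of the CPM values gave a two-sided p of 0.1, the smallest that 3 libraries against 3 allow.

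Values of marker genes are given beside those of Htr2c for choroid plexus, striatum, thalamus and midbrain, and no hypothalamic list was tested. The sum of the 12 choroid plexus markers was low in WAS replicate 1 and control replicate 2, although Otx2, one of them, was at 11.3 CPM in WAS replicate 1, above each control library. Ttr, the transthyretin gene that is the most abundant of them, was at 364 counts in WAS replicate 1, at 114 counts in control replicate 2 and between 8874 and 12599 counts elsewhere. Htr2c was at 50.8 CPM in WAS replicate 1 and at 28.7 CPM in control replicate 2. With both of these libraries dropped, which was decided once the data had been seen, Htr2c had a log2 fold change of 0.47 and an edgeR p of 0.00877 before adjustment. The striatal markers separated WAS replicate 2 from WAS replicates 1 and 3 by a wide margin, and Htr2c lay between 48.5 and 56.8 CPM in these 3 libraries. In WAS replicate 2 the thalamic sum lay within the range of the control libraries, and 3 of its 10 markers stood above each control library, as Htr2c did. Tcf7l2, a thalamic transcription factor gene and one of the 3, was at 42.0 CPM there against at most 38.4 CPM in the control libraries. Of the 9 midbrain and hindbrain markers 3 stood above each control library, En1 and Fev with 1 count each and Th, the tyrosine hydroxylase gene of dopamine neurons, at 4.65 CPM against at most 3.41 CPM. Without Th, this list summed to 0.865 CPM in WAS replicate 2 and to between 0.963 and 1.81 CPM in the control libraries. The part of these regions in the Htr2c difference was not tested. With WAS replicates 1 and 3 dropped, likewise decided afterwards, Htr2c had a log2 fold change of 0.47 and an edgeR p of 0.0134 before adjustment, under the assumption that the lone library labelled WAS varies like the others.

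**Figure D2:**
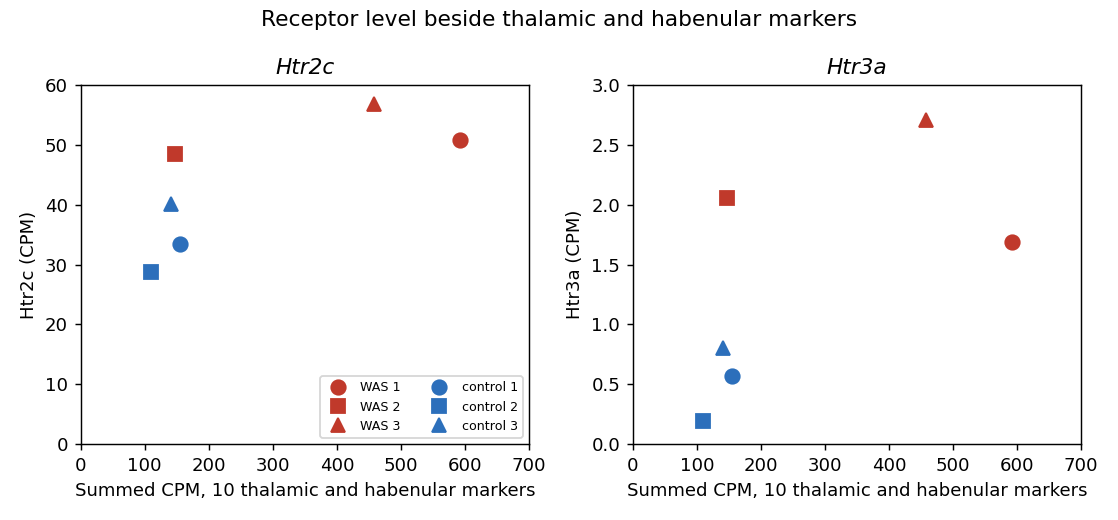
Htr2c (left) and Htr3a (right) in CPM against the summed CPM of 10 thalamic and habenular marker genes; each point is 1 library, red for labelled WAS and blue for labelled control. WAS replicate 2 has a marker sum of 147 CPM, within the range of the control libraries, and lies above them in both receptor genes; its Tcf7l2 level, 42.0 CPM, is above theirs as well.

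RefSeq promoter windows (GRCm38.p6) were found for 8 of the 10 genes, and not for Htr3a and Htr4. The 250 bases before the RefSeq start are shown for Htr2c and Htr1a, the members with an unadjusted p under 0.05 that have a window. They lie at chrX:146962263-146962512 and chr13:105443443-105443692, both on the plus strand, and base numbers count from that start. The Htr1a window runs past base 105443639, where the gene begins in GENCODE M21, so that its last part lies inside the gene. Capitals mark matches to any motif searched.
Htr2c: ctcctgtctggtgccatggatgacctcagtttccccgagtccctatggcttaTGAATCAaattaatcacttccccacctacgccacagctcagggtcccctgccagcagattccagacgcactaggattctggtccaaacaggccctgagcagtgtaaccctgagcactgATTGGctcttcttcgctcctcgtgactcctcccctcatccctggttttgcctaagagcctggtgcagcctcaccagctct
Htr1a: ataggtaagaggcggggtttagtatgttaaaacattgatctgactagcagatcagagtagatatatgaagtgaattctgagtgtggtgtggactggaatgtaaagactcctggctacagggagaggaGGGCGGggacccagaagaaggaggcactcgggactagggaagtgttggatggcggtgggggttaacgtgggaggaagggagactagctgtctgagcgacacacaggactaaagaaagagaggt
The motifs were searched on both strands: the AP-1 site TGANTCA, the core TGACG of the cAMP response element, the core of the glucocorticoid response element ACANNNTGT, the Egr site GCGGGGGCG, the GC box GGGCGG, the CCAAT box and the TATA box TATAAA. The Htr2c window held an AP-1 match from base -198 to -192 and a CCAAT match on the other strand from base -80 to -76. An AP-1 match was in 6.75% of all 32851 windows of this length and a CCAAT match in 33.8%. The Htr1a window held a GC box from base -123 to -118, as did 32.7% of all windows. The glucocorticoid response element core, found in 5.84% of all windows, and the Egr site, in 2.57%, were in none of the windows of the 8 genes.

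Htr3a encodes the subunit that forms the 5-HT3 channel, in brain mostly of interneurons. It lies at chr9:48899213-48911099 on the minus strand. Counts were low: WAS replicates 1 to 3 held 17, 19 and 27, and control replicates 1 to 3 held 6, 2 and 8. Each library labelled WAS held more counts than each labelled control. The exact Poisson 95% intervals of single libraries, which cover counting error only, overlapped for some pairs (9.90 to 27.2 counts for WAS replicate 1 and 3.45 to 15.8 counts for control replicate 3). That of WAS replicate 3, 17.8 to 39.3 counts, lay above those of all control libraries. Mean levels were 2.15 ± 0.514 CPM (SD, n = 3) against 0.522 ± 0.308 CPM (SD, n = 3). A log2 fold change of 1.99 was fitted, with a standard error of 0.53 and a 95% interval from 0.81 to 3.16. Its edgeR p was 0.00327 unadjusted and 0.514 after Benjamini-Hochberg adjustment. Leaving out each library in turn gave log2 fold changes between 1.60 and 2.43, with unadjusted p between 0.00352 and 0.0168. Htr3a met both the fold and the unadjusted p criterion in each of the 14 alternatives. Its adjusted p was lowest without WAS replicate 2 (0.0981) and highest without control replicate 2 (0.9998). It had a log2 fold change of 1.92 and an edgeR p of 0.0242 before adjustment when WAS replicates 1 and 3 were left out, the setting that leaves 1 library labelled WAS.

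Htr3b, the partner subunit of Htr3a in part of the 5-HT3 channels, was at 0 counts in each library. The 12 markers of GABAergic interneurons summed to between 1492 and 1817 CPM in the libraries labelled WAS and between 1641 and 1815 CPM in those labelled control, and their median log2 fold change was -0.12. Of these, Cck and Lamp5 were lower and Adarb2 higher at an unadjusted p under 0.05, 3 of 12 against 7.24% of all genes tested. Adarb2, a gene of interneurons from the caudal ganglionic eminence, had counts of 80, 57 and 61 against 48, 45 and 44, with a log2 fold change of 0.57 and no overlap between the groups. Its unadjusted p rose above 0.05 when WAS replicate 1 (0.123) or any one control library was dropped, and that of Cck when WAS replicate 3 or control replicate 1 or 2 was dropped (up to 0.0758). Reln, which encodes reelin, did not overlap either, with 387, 329 and 380 counts against 337, 307 and 319, and its log2 fold change of 0.22 did not pass the test. Vip, a peptide gene of interneurons that often carry the 5-HT3 receptor, had counts of 191, 162 and 192 against 236, 254 and 174. Its groups overlapped, with a log2 fold change of -0.24 and a standard error of 0.15.

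Htr1a encodes the 5-HT1A receptor, an inhibitory receptor of hippocampal and cortical neurons that is also the autoreceptor on serotonin neurons, and lies at chr13:105443639-105448122 on the plus strand. WAS replicates 1 to 3 held 118, 82 and 143 counts and control replicates 1 to 3 held 79, 94 and 80. WAS replicates 1 and 3 stood above the control libraries, and WAS replicate 2 lay among them, at 8.87 CPM against 7.52, 9.06 and 8.02 CPM. Its log2 fold change of 0.47 had a standard error of 0.21 and a 95% interval from 0.0081 to 0.93. In edgeR, p was 0.0467 unadjusted and 0.684 after Benjamini-Hochberg adjustment. The unadjusted p was 0.0091 without WAS replicate 2 and between 0.0528 and 0.217 without any other single library, 0.0602 by DESeq2 and 0.0656 by limma. Without WAS replicates 1 and 3 the log2 fold change was 0.07 (unadjusted p = 0.799). The sum of 7 hippocampal markers followed the same division, with 156 and 126 CPM in WAS replicates 1 and 3, 63.4 CPM in WAS replicate 2 and between 35.7 and 72.3 CPM in the control libraries. Not all of the 7 did so: 5 stood above each control library in WAS replicate 1, 4 in WAS replicate 3 and 1 in WAS replicate 2. C1ql2, one of the 7, was at 67.1, 4.87 and 41.3 CPM in WAS replicates 1, 2 and 3. The part of hippocampal tissue in the Htr1a difference was not tested.

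Among the receptors that stimulate adenylyl cyclase, Htr7 had counts of 65, 59 and 82 against 36, 45 and 65. Control replicate 3 lay above WAS replicates 1 and 2 once scaled to the library total, so that the groups overlapped. The log2 fold change was 0.52 (standard error 0.28, 95% interval -0.086 to 1.13, unadjusted p = 0.0854 in edgeR), and the leave-one-out values ran from 0.33 without control replicate 1 (unadjusted p = 0.282) to 0.82 without control replicate 3 (unadjusted p = 0.0158). Htr6 had 19, 10 and 10 counts against 9, 11 and 4, a log2 fold change of 0.73 with a 95% interval from -0.44 to 1.90. Dropping WAS replicate 1 gave 0.38, and dropping control replicate 3 gave 0.43. Its highest count was in WAS replicate 1, the library in which the striatal marker Adora2a, an adenosine receptor gene, was at 5 counts, against between 73 and 465 elsewhere. Htr4 had 14, 3 and 17 counts against 9, 6 and 16, and its log2 fold change of 0.15 (95% interval -1.23 to 1.52) changed sign when WAS replicate 1, WAS replicate 3 or control replicate 2 was left out. The intervals of Htr6 and Htr4 include both no difference and a fold change above 1.5.

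Htr2a, Htr1f and Htr5a had log2 fold changes below 0, and none passed the test. Htr2a, the 5-HT2A receptor gene of cortical pyramidal neurons, had 5, 20 and 14 counts against 21, 35 and 22. Scaled to the library total, WAS replicates 1 and 3 lay below each control library, and WAS replicate 2, at 2.16 CPM, lay between control replicates 1 and 3. The log2 fold change of -0.94 (standard error 0.50, 95% interval -2.04 to 0.16, unadjusted p = 0.0870) was -0.54 without WAS replicate 1 and -1.44 with an unadjusted p of 0.0188 without WAS replicate 2. Htr1f, an inhibitory receptor gene, had 34, 57 and 40 counts against 65, 58 and 39, which gave a log2 fold change of -0.25 (95% interval -0.91 to 0.40). Htr5a had 65, 76 and 70 counts against 95, 96 and 66, which gave a log2 fold change of -0.24 (95% interval -0.71 to 0.23). In both genes control replicate 3 fell within the range of the libraries labelled WAS. The cortical layer markers summed to between 1046 and 1322 CPM in the libraries labelled WAS and between 1227 and 1317 CPM in those labelled control. The part of cortical tissue in the levels of Htr2a, Htr1f and Htr5a was not tested.

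Htr1b, the gene of an inhibitory receptor on axon terminals, had 0, 0 and 1 counts in the 3 libraries labelled WAS against 0, 1 and 3 in those labelled control. All values were at or under 3 counts, equal to between 0.286 and 0.324 CPM, and no fold change is given. A value near 0 in these tables does not show that a transcript was absent, since Drd2, a defining gene of striatal neurons, was listed at 0 or 1 count, and Gpr6, another of them, at 0, in libraries in which Adora2a reached 465 counts. The exons of Htr1b overlap those of an antisense gene, D430036J16Rik, which had 18, 35 and 17 counts against 20, 16 and 12. Whether the counting used the strand is not given in the sources used here.

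**Figure D3:**
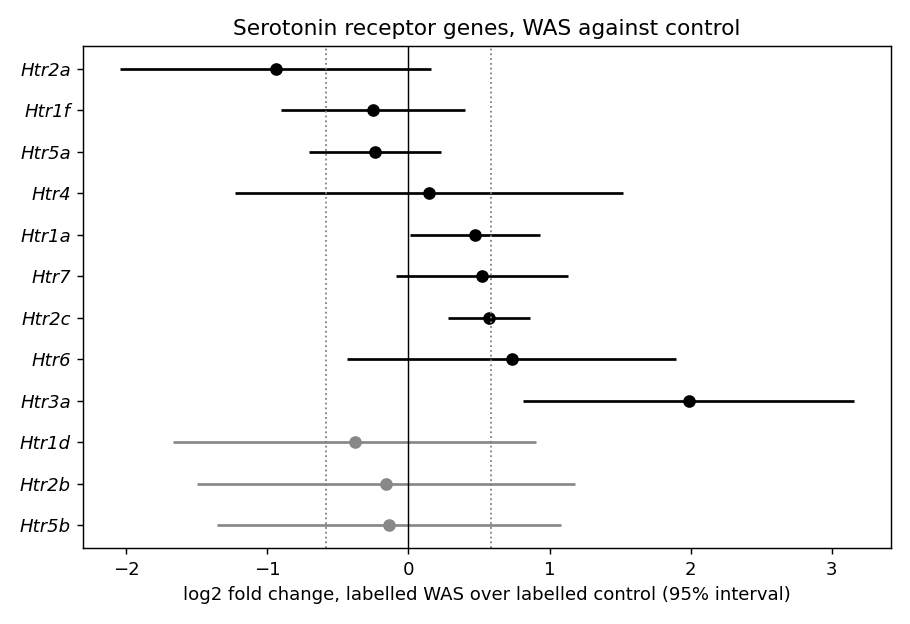
Log2 fold change of the libraries labelled WAS over those labelled control by edgeR's quasi-likelihood fit, with 95% intervals, for the 9 members that passed the filter (black) and 3 further receptor genes (grey); dotted lines mark a fold change of 1.5. The intervals of Htr3a, Htr2c and Htr1a lie above 0, and those of the other genes include 0.

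Of the other serotonin receptor genes, 3 of 4 were tested and none had an unadjusted p under 0.05. Htr1d, an inhibitory receptor gene related to Htr1b, had 5, 38 and 16 counts against 18, 31 and 31, and its libraries ran in the order of the striatal markers at the low end, with WAS replicate 1 lowest and WAS replicate 3 next. WAS replicate 2 was highest in both. Htr2b had between 3 and 11 counts and Htr5b between 5 and 13 counts in each library.

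**Figure D4:**
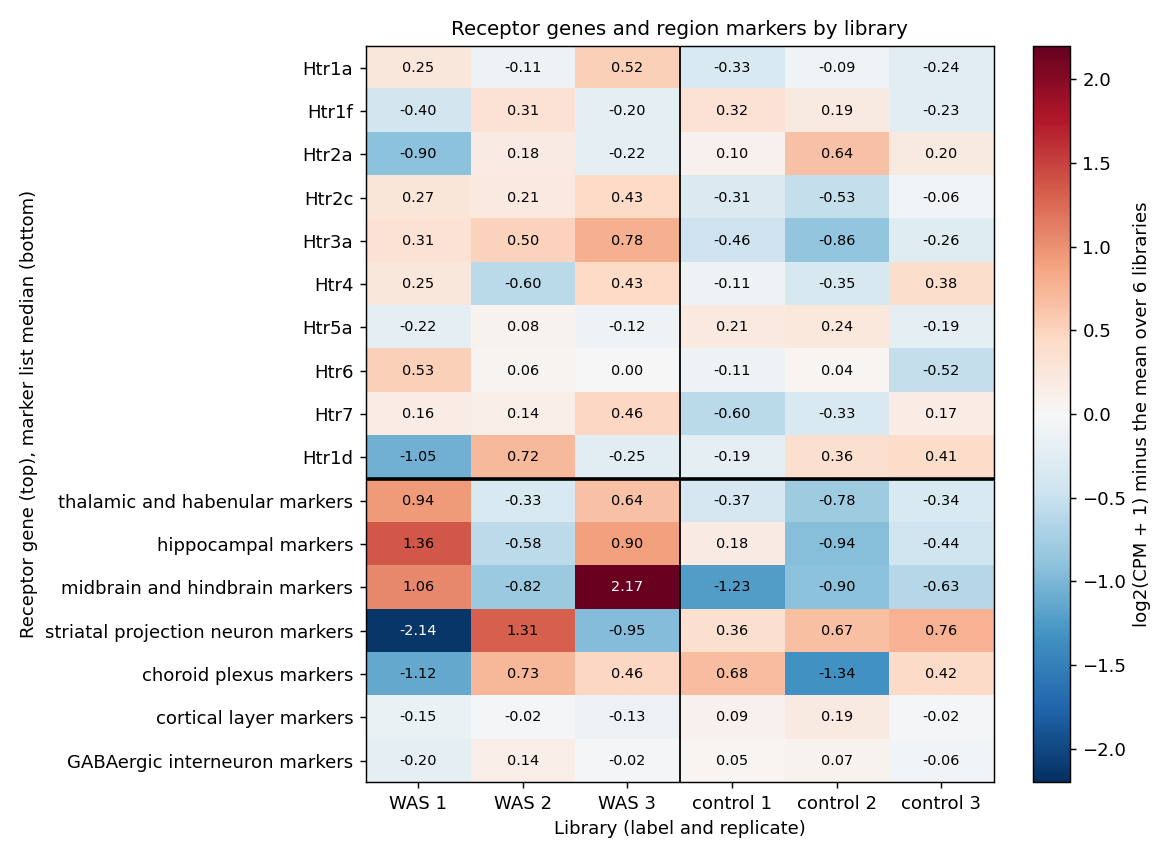
Level in each library as log2(CPM + 1) minus the mean over the 6 libraries, for 9 members and Htr1d (top) and as the median over the genes of 7 marker lists (bottom); red is above and blue below the mean. Htr2c and Htr3a are above their mean in each library labelled WAS and below it in each labelled control, while the striatal and midbrain lists separate WAS replicate 2 from WAS replicates 1 and 3.

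On the side of the neurons that release serotonin, transcripts were concentrated in WAS replicate 3. Tph2, the rate-limiting enzyme of serotonin synthesis in neurons, had 7, 3 and 102 counts in WAS replicates 1, 2 and 3 against 13, 7 and 7. Slc6a4, the serotonin transporter gene, had 14, 0 and 97 counts against 0 in each control library, and Fev, the transcription factor gene of serotonin neurons, had 3, 1 and 11 counts against 0. These genes are known from the cell bodies of serotonin neurons, and the part of raphe tissue in the receptor levels was not tested. Midbrain and hindbrain markers, a list that includes Tph2, Slc6a4 and Fev, together summed to 35.7, 5.51 and 65.0 CPM in WAS replicates 1, 2 and 3 and to between 2.79 and 4.61 CPM in the control libraries. Ddc, which makes the last step of serotonin and of dopamine synthesis, had 276, 130 and 456 counts against 99, 98 and 81, without overlap between the groups. It differed by 1.66 on the log2 scale, with a standard error of 0.33 and an edgeR p of 0.000397 unadjusted and 0.477 adjusted. Without WAS replicate 2 the adjusted p was 5.66e-05, and without WAS replicates 1 and 3 the difference was 0.60. Slc18a2, the vesicular monoamine transporter gene, had 119, 96 and 275 counts against 108, 102 and 103, and its groups were apart by a small margin. Its log2 fold change of 0.67 was 0.09 without WAS replicate 3.

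The enzymes that break serotonin down are made by many cells and moved little. Maoa was at 28.9 ± 1.84 CPM (SD, n = 3) against 25.5 ± 3.26 CPM (SD, n = 3), and Maob at 18.3 ± 0.624 CPM (SD, n = 3) against 17.0 ± 2.25 CPM (SD, n = 3). Their log2 fold changes were 0.14 (standard error 0.13) and 0.07 (standard error 0.14). Of the 9 genes of serotonin synthesis, transport and breakdown, 7 were tested. All 7 had log2 fold changes above 0, as 50.2% of all genes tested did. Their median was 0.67, which was 0.12 without WAS replicate 3. Only Ddc among the 7 had an unadjusted p under 0.05 in edgeR, which 7.24% of all genes tested had. Tph1, with at most 7 counts in a library, and Gch1, with 8 to 40, had unadjusted p of 0.845 and 0.188.

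Downstream of the receptors, 22 genes of G proteins, adenylyl cyclases, phospholipases C and the potassium channels opened by inhibitory G proteins were tested. None rose and 4 fell at an unadjusted p under 0.05, against 3.85% and 3.4% of all genes tested, and 0 of the 4 had a fold change of 1.5. The median log2 fold change was -0.11. Adcy2, an adenylyl cyclase gene, was at 56.7 ± 4.62 CPM (SD, n = 3) against 68.7 ± 4.62 CPM (SD, n = 3), without overlap between the groups (log2 fold change -0.32, standard error 0.10). Adcy1 (log2 fold change -0.27), Plcb1 (-0.38) and Kcnj3 (-0.24) had overlapping groups. Plcb1, the phospholipase C gene abundant in cortex and hippocampus, had 3053, 4018 and 2831 counts against 4440, 4803 and 4048. Its log2 fold change was -0.59 without WAS replicate 2 (edgeR adjusted p = 0.00195) and -0.03 without WAS replicates 1 and 3. With 1 library left out at a time, the unadjusted p reached 0.148 for Adcy1 (without control replicate 1) and 0.194 for Kcnj3 (without control replicate 2). It was above 0.05 for Adcy1 also without WAS replicate 2 or 3 or control replicate 2, for Kcnj3 also without WAS replicate 3 or control replicate 1, and for Plcb1 without WAS replicate 1 or 3 or control replicate 2. The most abundant genes of the list, Gnas and Gnao1, had log2 fold changes of 0.02 and -0.08, each with a standard error of 0.08. Gnal and Adcy5, the pair through which receptors stimulate adenylyl cyclase in the striatum, were lowest in WAS replicate 1 and highest in WAS replicate 2, as the striatal sum was, Adcy5 having 274, 1224 and 402 counts in WAS replicates 1, 2 and 3 against 764, 918 and 840.

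Of 11 partners and regulators of the receptors, Rgs4 alone had an unadjusted p under 0.05, which 7.24% of all genes tested had. Rgs4, which speeds up the switching off of G proteins, was lower in the libraries labelled WAS, with 4376, 6738 and 4211 counts against 7875, 8186 and 6895 in raw numbers. It differed by -0.53 on the log2 scale (standard error 0.18, edgeR adjusted p = 0.582), and scaled values of WAS replicate 2 and control replicate 3 overlapped. The difference was -0.83 without WAS replicate 2 (edgeR adjusted p = 6.66e-05) and -0.07 without WAS replicates 1 and 3 (unadjusted p = 0.539), and without WAS replicate 3 the unadjusted p was 0.0530. Adarb1, which edits the Htr2c transcript, had a log2 fold change of 0.13, S100a10, a protein that binds the 5-HT1B and 5-HT4 receptors, of 0.01, Ric3, a chaperone of 5-HT3 channels, of 0.07 and Mpdz, a scaffold that binds the 5-HT2C receptor, of 0.05. The standard errors of these 4 values lay between 0.088 and 0.15.

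Among genes with a mean of at least 100 counts, the 3 whose pattern over the 6 libraries was most like that of Htr2c were Rbms3, 2210013O21Rik and Tinagl1. Likeness was the root mean square difference of log2(CPM + 1), each gene centred on its own mean, and these genes lay at 0.0763, 0.0787 and 0.0960, against 0.338 for a gene with no variation. Rbms3 had 702, 567 and 716 counts in WAS replicates 1, 2 and 3 against 507, 429 and 527. 2210013O21Rik had 309, 248 and 366 counts against 215, 180 and 221. The study lists 2210013O21Rik as lower under stress, the opposite of its direction under the labels used here. Whether the labels are exchanged was not tested. The 3 genes were the closest of 9409 genes compared over only 6 libraries. No other member reached a mean of 100 counts.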

How the data were processed

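Forebrain RNA of 3 mice labelled WAS and 3 labelled control was measured, 1 library per mouse. The deposited counts come from single-end QuantSeq reads that the authors aligned with Bowtie2 and then counted in Bedtools, uniquely and multiply aligned reads alike. The submitters' processing notes name mm10, and the annotation is not given in the sources used here. The counts are raw, and totals ran from 9248520 to 10502029. No stretch of 50 bases in the last 500 bases of a member's longest GENCODE M21 transcript occurred in another gene.

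Levels are CPM of the library total. Counts were scaled by TMM (factors 0.976 to 1.01) and compared by edgeR's quasi-likelihood test (version 4.0.16, R 4.3.3). The fit held no replicate term, with Benjamini-Hochberg adjustment over 15239 genes. The biological coefficient of variation was 14.0%. Each standard error is the absolute log2 fold change over the root of the F statistic. Alternatives were total-count scaling, DESeq2 1.42.0, limma 3.58.1 on quantile-normalized log2 counts, other filters, the replicate number as a block and libraries left out. The code was tested on simulated data. The labels call the libraries biological replicates.

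The members and gene lists were chosen with earlier results of these data known. Named are the 10 members, other serotonin receptor and serotonin synthesis genes, and from the other lists the most abundant genes and those with an unadjusted p under 0.05, of which only some are given. Vip, Reln, En1, Th, Otx2, Cbln3, Pcp2, Adora2a, Gpr6, Drd2, Gabra6, Gnal, Adcy5, Adarb1, S100a10, Ric3, Mpdz and D430036J16Rik were named after their values were seen.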

Additional observations from a re-analysis of the deposited data

How the results depend on the processing

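Against 1 member past both criteria, unadjusted p and 1.5-fold change, there were 2 with total-count scaling (Htr3a and Htr2c), 2 with the replicate block (Htr3a and Htr2a) and between 1 and 4 with each library left out, 4 of them without WAS replicate 2. At an adjusted p of 0.05 the leave-out fits gave between 0 and 1 member, Htr2c without WAS replicate 2. For all genes, where edgeR's quasi-likelihood test gave 380, 1104 and 0 genes at the criteria, at an unadjusted p under 0.05 and at an adjusted p under 0.05, the leave-out fits gave between 261 and 831, between 623 and 2092 and between 0 and 484. Each of the highest values came without WAS replicate 2. The adjusted count was 22 with DESeq2, 49 with the replicate block and 1 without WAS replicates 1 and 3, and the unadjusted count was 675 without WAS replicate 1 and control replicate 2. Of the 380 genes, 277 were higher and 103 lower, a split of 201 and 151 with limma on quantile-normalized counts.

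The replicate numbers come from the labels, and same-numbered libraries deviated together only weakly (correlations 0.0662, 0.0846 and 0.0873, each the highest for its library), so that the numbers were not taken as pairs. Libraries with unlike numbers had correlations from -0.0959 to 0.0094, and whether a replicate number stands for a shared batch was not tested. With the replicate number as a block, Htr2c had a log2 fold change of 0.58 and an edgeR p of 0.000177 unadjusted and 0.0528 adjusted.

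The sign of the log2 fold change turned in some settings. Over all settings that leave out 1 or 2 libraries it ran from -1.64 to 0.64 for Htr4 (-0.088 with limma and -0.30 without WAS replicate 1 and control replicate 2), from -1.34 to 0.62 for Htr1d, from -0.55 to 0.24 for Htr2b (0.22 without control replicate 1), from -0.66 to 0.24 for Htr5b (-0.53 without WAS replicate 1 and control replicate 2), from -0.38 to 0.98 for Tph1, from -1.43 to 2.59 for Tph2 and from -0.024 to 0.15 for Maob. Without WAS replicates 1 and 3 it also turned for Htr1f (0.20), Gch1 (-0.78), Slc18a2 (-0.0067), C1ql2 (-0.99), Plekhg1 (-0.0076), Slc17a6 (-0.083), Ntng1 (-0.024) and Slc6a3 (-4.07). The cause was not tested. The lone library labelled WAS is assumed to vary like the others where WAS replicates 1 and 3 were left out. Both settings that leave out a pair of libraries were chosen after seeing the data. Low counts limit Htr3a, Htr4, Htr6 and Htr2a, and Htr1b is at the floor.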
